A study of Homo sapiens with 2 samples.

Results

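The erythroid and megakaryocyte transcription factors described here are 7 genes (*GATA1*, *KLF1*, *FLI1*, *NFE2*, *GFI1B*, *ZFPM1* and *TAL1*), chosen by symbol from the 32738 genes of the count matrix, in which each has exactly 1 entry. The cells came from the human induced pluripotent stem cell line iPS11, from which CD34+ cells were derived and then cultured for 5 days in medium for the endothelial to hematopoietic transition (EHT), on plates that were uncoated or coated with VCAM1, with DLL4 or with DLL4+VCAM1. All 4 groups share the line, the medium and the day. Nonadherent cells of 3 wells per coating were pooled, tagged with 1 hashtag antibody per coating and captured together as 1 library, so that each hashtag is a single pool from a single line without replicates. The hashtags are known here by number only (0252, 0253, 0254 and 0255), and since no source used here ties a number to a coating, no coating is named. Of 10836 barcodes, all distinct, 8488 had a call for 1 hashtag and 7550 of these were within the limits of 36000 UMIs (unique molecular identifiers, each counting 1 captured transcript), 6000 genes and 18% mitochondrial UMIs. These were 2136, 1996, 1847 and 1571 cells for hashtags 0252 to 0255, with median depths between 17621 and 18770 UMIs per cell.

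GATA1 is a zinc finger protein that binds GATA motifs and is required for both red cell and megakaryocyte maturation. ZFPM1, also called FOG1, is a cofactor that binds GATA1 rather than DNA. TAL1 is a basic helix-loop-helix protein that binds DNA beside GATA1 in a complex with LMO2 and LDB1, and GFI1B is a repressor used by both lineages. NFE2 is the large subunit of a factor that, with a small MAF protein, activates genes of platelet formation and globin genes. KLF1 binds CACC boxes in globin and other red cell genes, whereas FLI1 is an ETS protein of megakaryocytes and endothelium, and the KLF1 and FLI1 proteins are known to antagonise each other. In the hg19 build used for the counts, *GATA1* lies on chromosome X (48644948 to 48652718, plus strand), *KLF1* on chromosome 19 (12995236 to 12998015, minus strand), *FLI1* on chromosome 11 (128556430 to 128683162, plus strand) and *NFE2* on chromosome 12 (54685895 to 54694799, minus strand). *GFI1B* lies on chromosome 9 (135819387 to 135867074, plus strand), *ZFPM1* on chromosome 16 (88519688 to 88603439, plus strand) and *TAL1* on chromosome 1 (47681962 to 47697897, minus strand). The counts are of 3′ ends for the whole gene, so exons and isoforms were not told apart.

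Because GATA1 and KLF1 act through known DNA letters, the sequences just before the genes' starts are shown for *KLF1*, *GATA1* and the starts of *GFI1B* and *TAL1* that hold a GATA motif. They are the 250 bases before the start in RefSeq's GRCh38.p14 table, written 5′ to 3′ along the gene. Of the 7 genes, 5 matched an entry, with 2 starts each for *GFI1B* and *TAL1*; *FLI1* and *NFE2* are named only. Capitals mark GATA motifs (the letters GATAA or GATAG, each after an A or a T) and CACC boxes (CACCC), each on either strand. None of these matches overlaps another.
KLF1 (chr19:12887202-12887451, minus strand): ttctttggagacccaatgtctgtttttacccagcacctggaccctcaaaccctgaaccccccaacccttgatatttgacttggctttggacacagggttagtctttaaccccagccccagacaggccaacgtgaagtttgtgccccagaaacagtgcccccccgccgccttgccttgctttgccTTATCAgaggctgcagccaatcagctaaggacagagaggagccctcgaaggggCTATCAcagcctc
GATA1 (chrX:48786340-48786589, plus strand): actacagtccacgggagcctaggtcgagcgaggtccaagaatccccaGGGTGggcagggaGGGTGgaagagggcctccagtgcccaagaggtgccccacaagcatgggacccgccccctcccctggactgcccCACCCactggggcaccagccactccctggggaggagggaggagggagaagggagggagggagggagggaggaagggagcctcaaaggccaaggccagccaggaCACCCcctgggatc
GFI1B, second start (chr9:132978444-132978693, plus strand): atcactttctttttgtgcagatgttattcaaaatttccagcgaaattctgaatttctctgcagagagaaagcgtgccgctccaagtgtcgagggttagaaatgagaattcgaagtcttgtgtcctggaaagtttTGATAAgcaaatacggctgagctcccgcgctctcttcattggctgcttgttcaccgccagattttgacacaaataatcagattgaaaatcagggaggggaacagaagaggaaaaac
TAL1, upstream start (chr1:47232336-47232585, minus strand): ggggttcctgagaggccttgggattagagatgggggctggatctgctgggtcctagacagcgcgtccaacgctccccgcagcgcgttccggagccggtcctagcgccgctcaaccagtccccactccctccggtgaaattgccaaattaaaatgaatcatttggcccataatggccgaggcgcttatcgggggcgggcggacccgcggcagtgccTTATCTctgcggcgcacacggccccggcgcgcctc
The *KLF1* window held 2 GATA motifs, which begin 66 and 13 bases before the start, and no CACC box. The *GATA1* window held 4 CACC boxes and no GATA motif. The second *GFI1B* window and the *TAL1* window shown each held 1 GATA motif, 116 and 35 bases before the start. Among the windows not shown, those of *ZFPM1* and the first *GFI1B* start held neither motif. The other *TAL1* window held 1 CACC box and no GATA motif. Since the *GFI1B* and *TAL1* windows shown were picked for their GATA motif, they are not to be set beside the shares of all windows. Over all 35116 promoter windows of the table, 22.3% held at least 1 of these GATA motifs and 54.7% at least 1 CACC box. No window of the 7 entries held TGAGTCA, the core of the NF-E2 motif (4.2% of all windows), or CCGGAAG, an ETS motif (8.52% of all windows). These matches describe the letters of the windows; binding was not measured.

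Cells were grouped by marker UMIs. A cell was globin-positive with at least 10 UMIs summed over 10 globin genes, and PF4/PPBP-positive with at least 10 UMIs of the platelet chemokine genes *PF4* and *PPBP* together. Of 544 globin-positive and 108 PF4/PPBP-positive cells, 102 were both, which is 94.4% of the PF4/PPBP-positive and 18.8% of the globin-positive cells. The classes used are therefore globin only (442 cells), globin and PF4/PPBP (102 cells) and PF4/PPBP only (6 cells). Among the remaining cells, 1582 had at least 2 UMIs of both *CD34* and *GATA2*, genes of blood progenitors, and form the CD34/GATA2 class. As reference classes, 619 other cells had C1Q genes of macrophages, 667 a high sum of *MPO*, *ELANE*, *AZU1* and *PRTN3*, 136 eosinophil granule genes and 76 collagen genes, 1 cell had tryptase and 3919 fell in no class.

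The classes held their markers, although the call of a globin-positive cell leaned on *HBD* and the adult beta globin was low. *HBD*, the delta globin gene, was present in 97.3% of globin-only cells and 93.1% of globin and PF4/PPBP cells, and without it in the sum the classes shrank to 265 and 89 cells. *HBB*, the adult beta globin gene, was at 16.2 CPM (UMIs per 1000000 UMIs of the class) in globin-only cells. Among the platelet chemokines nearly all UMIs were of *PPBP*, at 3311 CPM in globin and PF4/PPBP cells against 33.3 CPM of *PF4*. Globin UMIs also appeared at low levels elsewhere, with *HBG2* at 8.04 CPM in C1Q cells and 4352 CPM in globin-only cells. The classes also shared markers and differ by a UMI minimum, not by absence. *CD34* had a UMI in 85.7% of globin-only and 75.5% of globin and PF4/PPBP cells, and *GATA2* in 75.1% and 42.2%. *CD34* was at 161 and 122 CPM there, against 215 CPM in CD34/GATA2 cells. *PPBP* had a UMI in 100 of 442 globin-only cells, at 32.5 CPM. Of the globin-only cells, 20 of 442 also passed the marker minimum of another lineage, 10 of them for collagen and 8 of these under hashtag 0255. Of the globin and PF4/PPBP cells, 7 of 102 did so. Of the CD34/GATA2 cells, 116 of 1582 did so (7.33%), 88 of them for eosinophil granule genes, and without these cells the counts of members past 2-fold against this class given below were the same, in a check added after seeing the data.

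With 1 library there is no replicate error, and no test was made between classes or hashtags. Intervals are exact 95% intervals (Poisson for levels, Clopper-Pearson for shares) and cover counting error only. A gene is called higher or lower between classes past 2-fold on the scale of log2(CPM + 1), while the intervals of ratios are those of the CPM alone. The share of all genes past the same fold is given beside the counts of the main setting. It was not computed for the alternative settings, whose counts of members stand without it.

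*KLF1* and *GFI1B* were the members past 2-fold between globin and PF4/PPBP cells and globin-only cells, in opposite directions. *KLF1* was at 6.36 CPM (3.39 to 10.9, from 13 UMIs) in globin and PF4/PPBP cells and at 84.6 CPM (78.8 to 90.8) in globin-only cells, a log2 ratio of -3.54 (-4.65 to -2.95). *GFI1B* was at 183 CPM against 78.8 CPM, a log2 ratio of 1.20 (1.03 to 1.39). Thus 1 of 7 members was higher, where 4.71% of 10908 genes were, and 1 of 7 was lower, where 4.9% were. *TAL1* (207 against 120 CPM, log2 0.78), *FLI1* (123 against 87.3 CPM, log2 0.50), *NFE2* (223 against 177.6 CPM, log2 0.33), *GATA1* (312 against 272 CPM, log2 0.20) and *ZFPM1* (43.1 against 38.2 CPM, log2 0.17) stayed within 2-fold. The interval for *ZFPM1* (-0.18 to 0.52) held 0, and the median of all genes was -0.12. Without limits on UMIs or genes per cell, *GFI1B* was just within 2-fold at 0.99. With a marker minimum of 3 UMIs 4 members were past 2-fold, with *KLF1* at -2.51, *GFI1B* at 1.68, *TAL1* at 1.25 and *FLI1* at 1.15. The share of all genes at that minimum was not computed.

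The low *KLF1* level of globin and PF4/PPBP cells was seen under each hashtag. In these cells *KLF1* was at 3.44 CPM under hashtag 0252, 8.60 under 0253, 16.8 under 0254 and 0 under 0255, from 3, 7, 3 and 0 UMIs in 44, 41, 7 and 10 cells. In globin-only cells it was at 53.0, 51.0, 162 and 139 CPM. The values of the classes did not overlap, and the interval of each hashtag in one class lay apart from its interval in the other. Within a hashtag the log2 ratio was -3.61 (-6.24 to -2.38) for 0252, -2.44 (-3.91 to -1.49) for 0253 and -3.20 (-5.55 to -1.71) for 0254. For hashtag 0255, with no UMI, the upper limit of the interval was -2.72, and 3 counts, set as the floor of that hashtag, would give -2.97.

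*GFI1B* was higher in globin and PF4/PPBP cells under all 4 hashtags, at 180, 189, 179 and 169 CPM against 97.0, 82.1, 54.1 and 57.6 CPM in globin-only cells for 0252 to 0255. The former levels spanned 1.12-fold, whereas the latter spanned 1.79-fold, with 0252 and 0253 above 0254 and 0255. Within a hashtag the log2 ratio of *GFI1B* was 0.88 (0.60 to 1.17) under 0252, which is within 2-fold. It was 1.19, 1.71 and 1.54 under 0253, 0254 and 0255. *TAL1* was also higher under all 4 hashtags, at 217, 197, 213 and 198 CPM against 130, 132, 91.7 and 106 CPM. *FLI1* was at 136, 112, 140 and 96.0 CPM in globin and PF4/PPBP cells and at 98.3, 100, 59.5 and 64.8 CPM in globin-only cells. The classes overlapped for *FLI1*, since the lowest globin and PF4/PPBP value lay below the highest globin-only value. *GATA1* ranged from 302 to 322 CPM and *NFE2* from 205 to 280 CPM in globin and PF4/PPBP cells, above their ranges of 229 to 293 and 150 to 184 CPM in globin-only cells. Within a hashtag, however, the interval of the *GATA1* ratio held 0 under 0252, 0253 and 0254. That of *NFE2* held 0 under 0252. That of *FLI1* held 0 under 0253 (-0.20 to 0.50) and 0255 (-0.31 to 1.38). *ZFPM1* ranged from 33.9 to 67.2 CPM and from 33.7 to 42.4 CPM, with overlap.

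**Figure D1:**
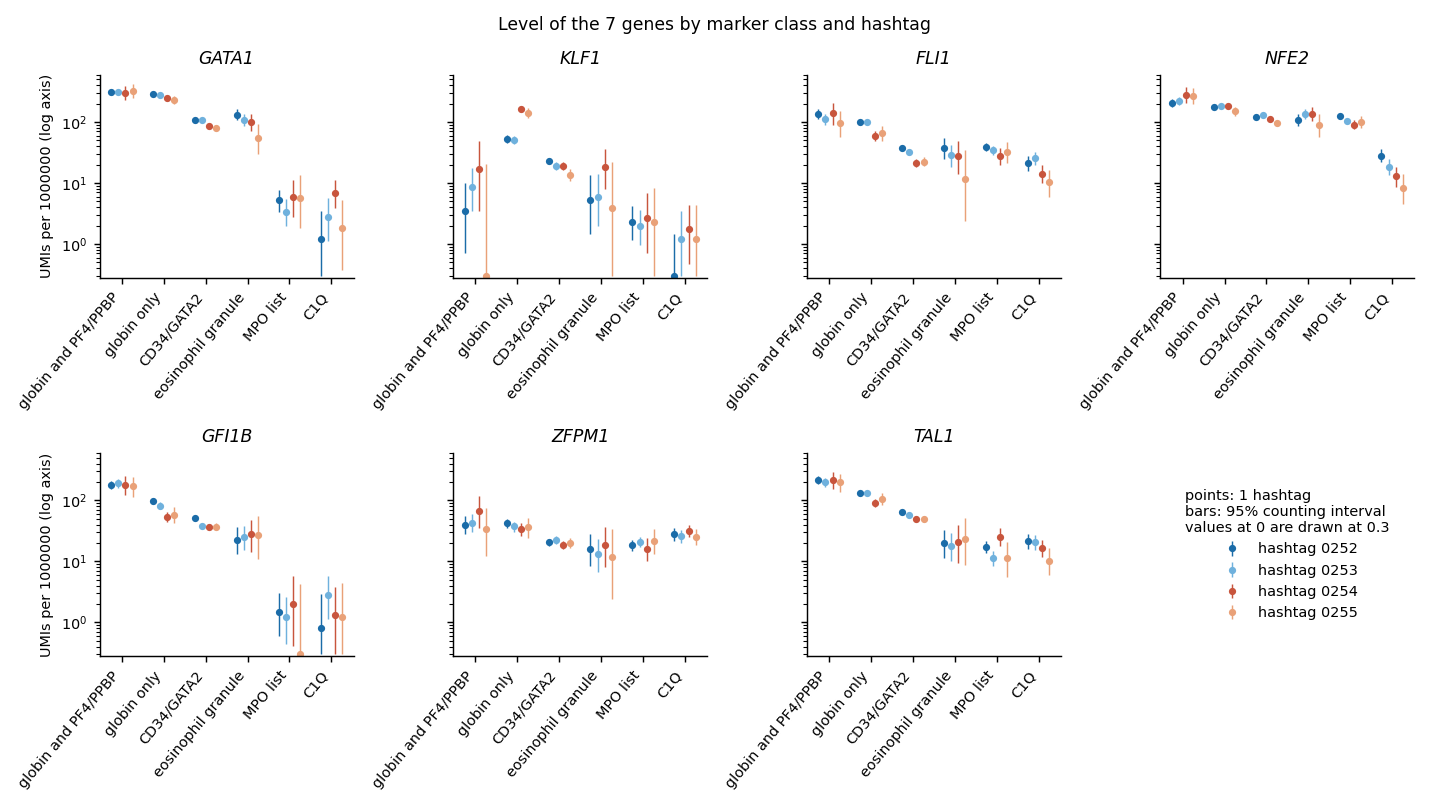
Level of each gene (UMIs per 1000000, log axis) in 6 marker classes, with 1 point per hashtag and bars for the 95% counting interval; values at 0 are drawn at 0.3. *KLF1* is the 1 gene whose globin and PF4/PPBP points lie below all of its globin-only points, and within globin-only cells its points for 0254 and 0255 (162 and 139) lie above those for 0252 and 0253 (53.0 and 51.0).

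The planned comparison with PF4/PPBP-only cells rested on 6 cells, 3 each under hashtags 0252 and 0253, and gave no firm ratio. *FLI1* was at 22.9 CPM there, from 3 UMIs, and the log2 ratio of globin-only cells to these 6 was 1.88 (0.38 to 4.21). For *KLF1* it was 0.46 (-0.52 to 1.69), from 8 UMIs in the 6 cells. Past 2-fold in either direction were 1 of 7 members and 39.4% of 11326 genes. Set against all 108 PF4/PPBP-positive cells, a comparison chosen after seeing the data, globin-only cells had a log2 ratio of 3.01 for *KLF1* (2.51 to 3.83) and of -0.42 for *FLI1* (-0.63 to -0.22), so that the direction for *FLI1* turned. Of the 6 cells 1 also held C1Q markers. Past 2-fold in either direction against them were 11 of 22 megakaryocyte, 9 of 20 erythroid and 5 of 22 partner genes, beside 39.4% of all genes.

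Against CD34/GATA2 cells, all 7 members were higher in globin-only cells in value, and 4 of them past 2-fold. The log2 ratios were 2.09 for *KLF1* (84.6 against 19.1 CPM), 1.55 for *FLI1* (87.3 against 29.2), 1.49 for *GATA1* (272 against 96.5) and 1.08 for *TAL1* (120 against 56.1). *GFI1B* (0.92), *ZFPM1* (0.87) and *NFE2* (0.59) stayed within 2-fold. Over all genes 4.06% were higher and 2.62% lower, with a median log2 ratio of -0.10, and no member was lower. At a marker minimum of 3 UMIs, which brought the globin-only class to 951 cells, 2 members were past 2-fold. No share of all genes was computed beside this count.

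In globin and PF4/PPBP cells 5 of 7 members were past 2-fold higher than in CD34/GATA2 cells, where 8.98% of genes were, and 1 was lower, where 12.8% were. *GFI1B* had a log2 ratio of 2.12, *FLI1* 2.04, *TAL1* 1.86, *GATA1* 1.68 and *ZFPM1* 1.04. *KLF1* was the lower member, at -1.45 (-2.51 to -0.80). *NFE2* was within 2-fold at 0.92. The median of all genes in this comparison was -0.24.

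Within CD34/GATA2 cells all 7 genes were present, and their levels spanned 1.21-fold (*ZFPM1*) to 1.74-fold (*FLI1*) between hashtags. *GATA1* was at 107, 107, 86.0 and 80.6 CPM for 0252 to 0255, *FLI1* at 37.4, 32.6, 21.5 and 22.3 CPM and *KLF1* at 22.98, 18.9, 18.9 and 13.5 CPM. Hashtag 0252 was the highest for *GATA1*, *KLF1*, *FLI1*, *GFI1B* and *TAL1*, and 0253 for *NFE2*, each with an interval above that of the lowest hashtag. The order for *KLF1* here differed from that in globin-only cells, where 0254 was the highest. The intervals of *ZFPM1* overlapped.

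Ordered over 8 classes with at least 76 cells each, 6 of the 7 genes had their highest level in globin and PF4/PPBP cells and the next in globin-only cells. The intervals of these classes overlapped only for *ZFPM1*. *KLF1* was highest in globin-only cells, then CD34/GATA2 cells (19.1 CPM), then eosinophil granule cells (7.89), and globin and PF4/PPBP cells came next at 6.36 without separating from the eosinophil granule or unclassed cells. *GATA1*, which also serves the eosinophil lineage, was at 108 CPM in eosinophil granule cells and 96.5 in CD34/GATA2 cells, with overlapping intervals. *NFE2* was at 121 CPM in eosinophil granule cells, 117 in CD34/GATA2 cells and 111 in the MPO list class, each overlapping the next.

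C1Q cells, the macrophage reference, held the 7 genes unequally. They had *GATA1* at 3.24 CPM, *GFI1B* at 1.56 and *KLF1* at 1.0. They had *ZFPM1* at 27.7 CPM, *FLI1* at 18.5, *NFE2* at 17.9 and *TAL1* at 17.9. For *ZFPM1* the C1Q level lay above that of CD34/GATA2 cells (20.4 CPM), and thinned to equal depth, as described next, *ZFPM1* was in 9.86% of CD34/GATA2 and 14.3% of C1Q cells. What part of the C1Q levels is free RNA was not tested. Collagen cells held *ZFPM1* at 26.3 and *FLI1* at 20.3 CPM.

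For *KLF1*, *FLI1*, *GFI1B* and *GATA1*, the shares of cells with a UMI kept the order of the classes named here once depth was made equal. Each cell was thinned at random to 5000 UMIs, which left out 2 globin-only and 2 globin and PF4/PPBP cells. *KLF1* was then found in 23.4% of globin-only cells (19.5 to 27.7), 2.0% of globin and PF4/PPBP cells (0.24 to 7.04), 8.28% of CD34/GATA2 cells (6.97 to 9.75) and 0.32% of C1Q cells (0.04 to 1.17). *FLI1* was found in 32.3%, 47.0%, 12.6% and 9.58%, and *GFI1B* in 27.3%, 58.0%, 17.1% and 1.30%. *GATA1* reached 69.3% and 71.0% in the globin classes against 34.5% of CD34/GATA2 and 1.30% of C1Q cells. Unthinned, *KLF1* was in 51.1% of globin-only, 9.80% of globin and PF4/PPBP and 1.45% of C1Q cells, whose median depths were 19668, 18682 and 13197 UMIs.

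Along the globin count, the 7 genes did not move together at the upper end. From cells without a globin UMI to cells in the bin from 100 to below 300, *GATA1* went from 33.4 to 324 CPM, *TAL1* from 29.5 to 159, *FLI1* from 21.4 to 128, *GFI1B* from 15.2 to 123 and *NFE2* from 67.5 to 195. *KLF1* went from 6.44 CPM at 0 to 52.8 at 10 to 29 globin UMIs and was at 44.6 and 46.0 in the next bins. In the 90 cells with 300 or more globin UMIs *KLF1* was at 174 CPM (156 to 193), while *FLI1* was at 64.7 (54.0 to 76.8) and *GFI1B* at 84.6 (72.4 to 98.3), both below their level in the bin before. *GATA1* was at 281 CPM and *NFE2* at 208 in these cells.

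The top globin bin also differed between hashtags. *KLF1* was at 63.5 CPM in 21 cells of hashtag 0252, 134 in 26 cells of 0253, 272 in 31 cells of 0254 and 169 in 12 cells of 0255. *FLI1* was at 110, 62.6, 55.6 and 18.4 CPM in the same cells. Hashtag 0254 was highest for *KLF1*, and its interval (236 to 313) lay above those of the other 3. For *FLI1* 0252 was highest, with an interval (81.3 to 144) above that of 0255 (5.96 to 42.9). In the bin before, *KLF1* was at 33.4, 24.4, 74.6 and 227.1 CPM in 56, 60, 21 and 9 cells. *FLI1* was at 135, 136, 96.0 and 117 CPM in those cells. It was lower in the top bin under each hashtag in value, but the intervals overlapped under 0252 and 0254. *KLF1* was higher in the top bin in value under 0252, 0253 and 0254 but lower under 0255. Its intervals overlapped under 0252 and 0255. These bins differ in their shares of hashtags, so pool and globin count are not separated in the pooled values.

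Along the PF4/PPBP count, *GFI1B* and *TAL1* climbed in value and *KLF1* did not. *GFI1B* was at 21.3 CPM in the 6925 cells without such a UMI, 131 at 3 to 9, 151 at 10 to 29, 187 at 30 to 99 and 210 in the next bin. *TAL1* was at 37.9, 171, 193, 198 and 224 CPM in the same bins. For both genes the intervals of neighbouring bins from 3 UMIs upward overlapped. *FLI1* was at 143 CPM at 3 to 9 and between 112 and 139 in the next 3 bins, with overlapping intervals. *KLF1* was at 13.8 CPM without a UMI, 3.54 at 3 to 9, 11.9 and 12.1 in the next bins and 0 in the 16 and 3 cells of the last bins, where the intervals reach 10.47 and 52.9 CPM.

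**Figure D2:**
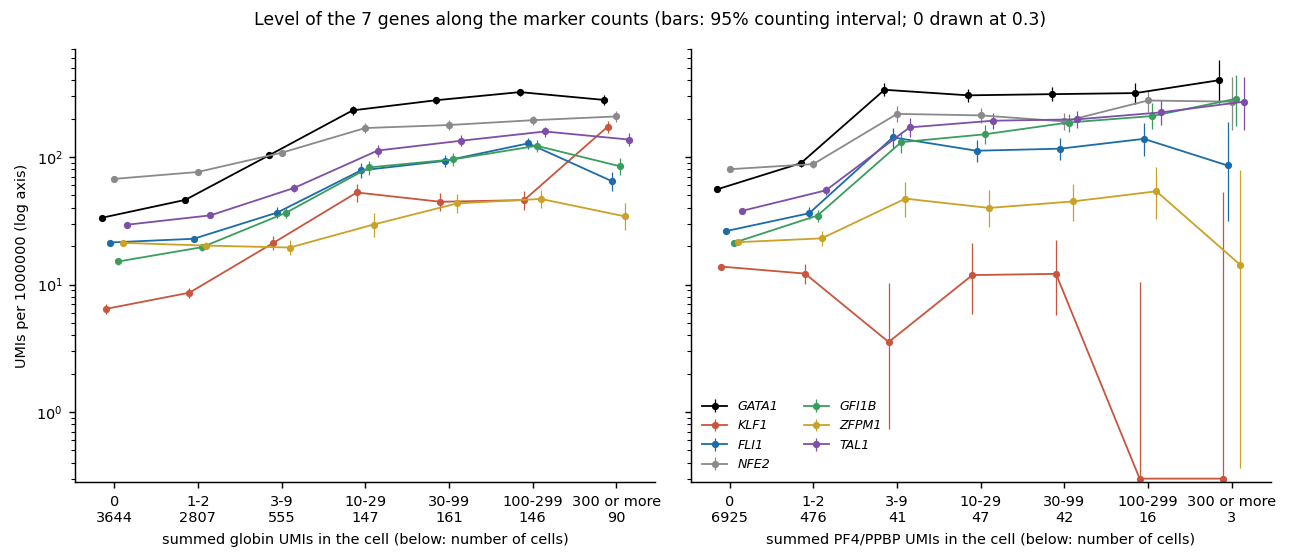
Level of the 7 genes (UMIs per 1000000, log axis) in cells binned by summed globin UMIs (left) or PF4 plus PPBP UMIs (right), with the number of cells under each bin and 95% counting intervals; values at 0 are drawn at 0.3. Pooled over hashtags, *KLF1* goes from 46.0 in the last globin bin but one to 174 at 300 or more UMIs. Under 0255 alone it is lower in the top bin. *FLI1* goes from 128 to 64.7 between the same bins, which differ in their shares of hashtags. Along PF4/PPBP *KLF1* is at 0 in the last bins.

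Most cells of the globin classes held several of the 7 genes. At 5000 UMIs a globin-only cell had 2.68 ± 1.4 of them (mean and SD over 440 cells), a globin and PF4/PPBP cell 3.27 ± 1.38 (100 cells), a CD34/GATA2 cell 1.5 ± 1.11 and a C1Q cell 0.44 ± 0.63. None of the 7 was seen in 5.45% of globin-only cells and in 63.6% of C1Q cells. As counted, 5 or more were seen in 74.7% of globin-only and 83.3% of globin and PF4/PPBP cells, against 29.4% of CD34/GATA2 cells and 0 of 619 C1Q cells, a count that still permits 0.485%.

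*KLF1* and *FLI1* were found together less often than the product of their shares in globin-only cells. The product lay within the interval of the joint share. That interval does not measure departure from the product, which was not tested. Of 440 globin-only cells at 5000 UMIs, 79 had only *KLF1* (17.95%), 118 only *FLI1* (26.8%) and 24 both (5.45%, 3.53 to 8.01), where the product is 7.55%. Of 100 globin and PF4/PPBP cells, 1 had only *KLF1*, 46 only *FLI1* and 1 both. Of 1582 CD34/GATA2 cells, 114 had only *KLF1*, 182 only *FLI1* and 17 both (1.07%, product 1.04%). Over all 546 globin or PF4/PPBP cells with enough depth, 25 held both (4.58%, 2.98 to 6.69). This share depends on depth, at 11.4% with 9000 UMIs per cell and 29.8% as counted.

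By hashtag, the cells with *KLF1* alone were the more variable. They were 12.7%, 13.2%, 31.6% and 22.7% of globin-only cells for 0252 to 0255, and cells with *FLI1* alone 26.7%, 32.5%, 21.1% and 20.5%. Cells with both were 5.33%, 4.64%, 7.37% and 4.55%.

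Of the 21 pairs in each class, those with the ratio furthest above 1 are given here, and were chosen after their values were seen. In globin-only cells *FLI1* and *GFI1B* were found together in 13.4% (10.4 to 16.95) where the product is 8.80%, a ratio of 1.52. *FLI1* and *TAL1* followed with 16.4% (13.03 to 20.2) against 12.8%, whereas *KLF1* with *TAL1* was at 8.18% against 9.26% and *KLF1* with *GFI1B* at 5.68% against 6.38%, both within the interval. In CD34/GATA2 cells the pair furthest above its product was *GATA1* and *KLF1*, at 4.68% (3.69 to 5.84) against 2.85%. These are descriptions over cells of 1 library, which share their depth and free RNA.

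**Figure D3:**
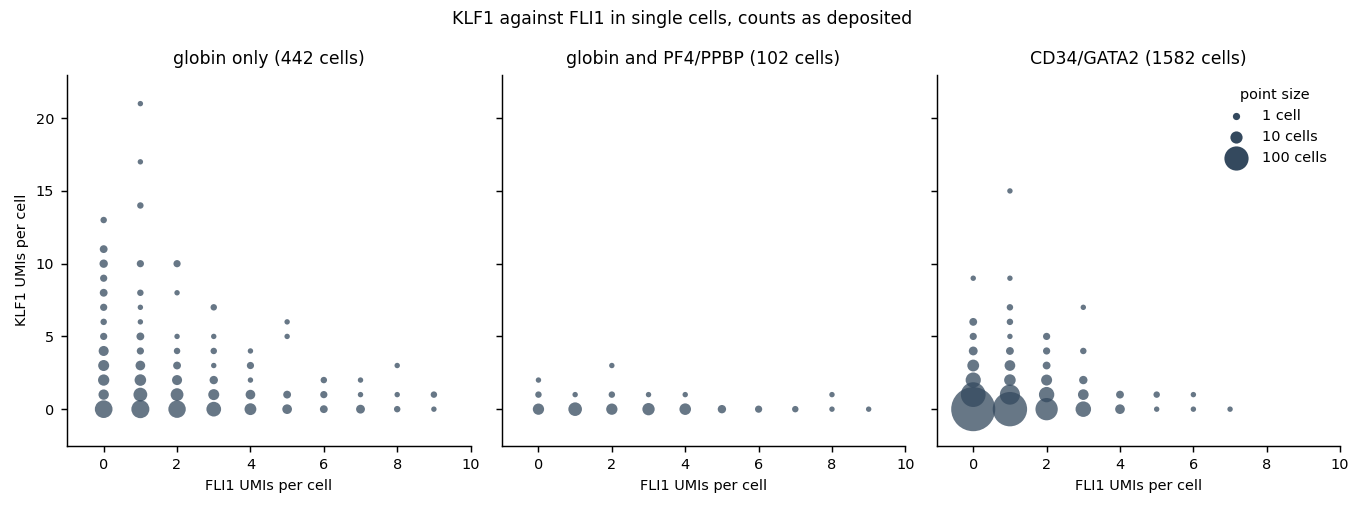
*KLF1* against *FLI1* UMIs per cell, as counted, in globin-only (442), globin and PF4/PPBP (102) and CD34/GATA2 (1582) cells; the area of a point grows with the number of cells. High counts of 1 gene come with low counts of the other in globin-only cells, and in globin and PF4/PPBP cells the points stay near the *FLI1* axis.

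In cells with enough UMIs of the pair, pooled over hashtags, the *KLF1* share of *KLF1* plus *FLI1* was mostly near an end. Of 117 globin-only cells with at least 5 UMIs of the pair, 48 had a *KLF1* share of 80% or more (41.0%, 32.0 to 50.5), 40 of 20% or less (34.2%) and 29 lay between. Of 15 globin and PF4/PPBP cells, 14 were at 20% or less and 1 between. Of 47 CD34/GATA2 cells, 19 were at 80% or more, 18 between and 10 at 20% or less. The minimum picks cells with many UMIs of either gene, and at a minimum of 3 the share of globin-only cells at 80% or more was 28.3%.

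The *KLF1* share differed between hashtags. Among globin-only cells its median was 30.3% under 0252 (38 cells), 20% under 0253 (27 cells), 88.2% under 0254 (38 cells) and 87.7% under 0255 (14 cells). Cells between 20% and 80% were 16 of 38, 4 of 27, 7 of 38 and 2 of 14, and under 0252 as many were at 20% or less. Cells at 80% or more were 6 of 38, 8 of 27, 26 of 38 and 8 of 14. The interval of hashtag 0254 (51.4 to 82.5%) lay above those of 0252 (6.02 to 31.3%) and 0253 (13.8 to 50.2%), while that of 0255 (28.9 to 82.3%) overlapped all of them. Without hashtag 0254 the share of globin-only cells at 80% or more was 27.9%, and without 0252 it was 53.2%. Each hashtag is 1 pool of wells, and the coating and any other difference between the pools cannot be told apart.

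**Figure D4:**
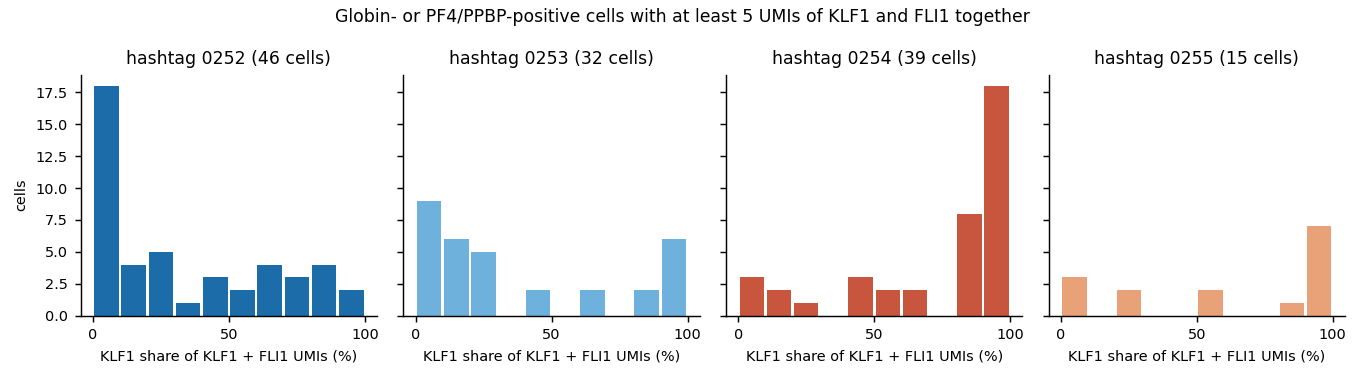
Number of globin- or PF4/PPBP-positive cells by the *KLF1* share of their *KLF1* plus *FLI1* UMIs, in steps of 10%, for cells with at least 5 such UMIs. Hashtags 0252 and 0253 have their largest bar below 10%, and 0254 and 0255 theirs at 90% or more.

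The cells at either end of the *KLF1* share differed in their other genes, but also in their hashtags. For 0252 to 0255, 6, 8, 26 and 8 cells had a share of 80% or more. At 20% or less were 24, 19, 6 and 5 cells. Values of these groups are pooled over hashtags unless a hashtag is named, so pool and *KLF1* share are not separated in them. The 48 cells at 80% or more had a median of 757 globin UMIs and 0 were PF4/PPBP-positive, a count that still permits 6.25%, whereas the 54 cells at 20% or less (globin-only and globin and PF4/PPBP cells together) had 126.5 globin UMIs and 14 were PF4/PPBP-positive. Their median depths were 21008 and 22594 UMIs, and in each group 1 cell held markers of another lineage. *GATA1* was at 251 and 330 CPM and *NFE2* at 203 and 232 CPM. *GFI1B* was at 36.8 CPM in the cells with a high *KLF1* share and 141 CPM in those with a low share, and *TAL1* at 95.2 and 197 CPM. By hashtag, *GFI1B* was at 86.0, 52.3, 16.5 and 60.3 CPM with a high share and 160, 134, 90.5 and 141 with a low share. *GATA1* went the other way under 0252, at 387 CPM with a high share and 296 with a low share.

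The globin genes followed the *KLF1* share unequally. *HBZ*, the embryonic zeta globin gene, was at 10018 CPM in cells with a high share, with a UMI in 41 of 48 cells, and at 137 CPM in cells with a low share, of which 78.6% came from 1 cell. *HBG2*, a fetal gamma globin gene, was at 20139 and 2319 CPM and *HBG1* at 9774 and 1467 CPM, although these near-identical genes may share reads, as may *HBA1* (1208 and 130 CPM) and *HBA2*. In cells with a low share 60.4% of the *HBA1* UMIs came from 1 cell, and 20 of 54 cells held a UMI. *HBD* did not follow, at 1516 CPM in cells with a high share and 1947 CPM in those with a low share. *HBE1* (embryonic epsilon globin) was at 2497 and 116 CPM, but 66.7% of the former came from 1 cell. By hashtag, *HBZ* in cells with a high share was at 843 (0252), 14749 (0253), 10574 (0254) and 9500 CPM (0255), so that the 6 cells of 0252 stood apart from the rest.

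Red cell genes differed in either direction between the same cells, and the platelet genes named here were higher where the *KLF1* share was low. *ALAS2*, the first enzyme of heme synthesis in red cells, was at 163 CPM in cells with a high *KLF1* share and 3.96 CPM in those with a low share, and the transferrin receptor gene *TFRC* at 326 and 68.9 CPM. *PLEK* (pleckstrin, a platelet protein) was at 148 and 1284 CPM, *ITGA2B* (integrin alpha IIb) at 172 and 435 CPM, and *F13A1* (a coagulation factor subunit) at 0 and 78.4 CPM. The interval of that 0 reaches 3.48 CPM, and only 25.9% of the cells with a low share held an *F13A1* UMI. Those with a low share include 14 PF4/PPBP-positive cells, which were chosen by platelet genes. By hashtag, *ALAS2* in cells with a high share was at 17.2, 238, 171 and 157 CPM for 0252 to 0255. *PLEK* was at 602, 110, 92.3 and 72.3 CPM in the same cells, so that 0252 stood apart for both genes. *GYPB* (803 and 482 CPM) and *RHAG* (219 and 238 CPM), both of the red cell membrane, differed by less than 2-fold. Other genes of the erythroid list went the opposite way, with *HEMGN* at 10.4 CPM in cells with a high share and 132 CPM in those with a low share, *TRIM58* at 15.1 and 53.1 CPM, and *CA2* at 8.48 and 30.1 CPM.

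Lists of partners and of genes downstream were compared between globin and PF4/PPBP cells and globin-only cells. Of 26 megakaryocyte genes, 23 passed the minimum of 3 CPM in either class, and 18 of these were past 2-fold higher and 0 lower, with a median log2 ratio of 1.62 beside -0.12 for all genes. They were led by *F13A1* (147 against 6.45 CPM, log2 4.31), *CLEC1B* (a platelet receptor, 3.55), *CD9* (a tetraspanin, 3.16) and *GP6* (the platelet collagen receptor, 2.64). The list gave 15 of 23 higher and 1 lower under hashtag 0252, and 16 of 22 higher under 0253 alone, where 6.63% and 6.65% of all genes were higher. The class is chosen by *PPBP*, a megakaryocyte gene, so the direction of this list is not independent of how the cells were chosen.

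Of 26 erythroid genes, 20 passed the minimum, 4 were lower (beside 4.9% of all genes) and 2 higher (beside 4.71%), with a median log2 ratio of -0.51. The lower ones included *ALAS2* (1.96 against 30.4 CPM, log2 -3.41), *TFRC* (46.0 against 128 CPM, -1.45) and *GYPB* (265 against 587 CPM, -1.15). *CA2* (carbonic anhydrase, 2.22) and *HEMGN* (hemogen, a nuclear protein, 1.57) were higher. *EPOR*, the erythropoietin receptor gene, was at 18.6 and 14.98 CPM. Under hashtag 0253 alone 8 of 21 erythroid genes were lower, beside 9.21% of all genes, and 2 higher, beside 6.65%. Under 0252 4 of 19 were lower, beside 7.49%, and 2 higher, beside 6.63%.

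Of 24 partners of the 7 proteins, 21 passed the minimum, 3 were lower, beside 4.9% of all genes, and none was past 2-fold higher, beside 4.71%. *GATA2*, which GATA1 replaces on DNA as cells mature, was at 43.1 CPM in globin and PF4/PPBP cells and 154 CPM in globin-only cells, a log2 ratio of -1.81 (-2.16 to -1.52). *ERG*, an ETS gene related to *FLI1*, was at 0.98 and 8.20 CPM (-2.22, -6.14 to -1.16, from 2 UMIs in the first class), and *MYB*, a progenitor factor, at 10.3 and 26.8 CPM (-1.30). *MAFG*, a small MAF partner of NFE2, was just short of 2-fold higher, at 185 against 92.1 CPM. *LMO2* (95.5 and 79.2 CPM) and *RUNX1* (95.5 and 79.7 CPM) were within 2-fold, as were *LDB1* (24.5 and 45.6 CPM) and *TCF3* (22.5 and 38.8 CPM), the other parts of the TAL1 complex. Against CD34/GATA2 cells, *LMO2* was higher in both globin classes (log2 2.26 and 2.53) and *MYB* lower (-1.18 and -2.48).

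The globin-only class was itself high in megakaryocyte genes when set against CD34/GATA2 cells. Of 22 such genes tested 21 were past 2-fold higher, with a median log2 ratio of 2.46, and of 20 erythroid genes 16 were, with a median of 1.55, beside 4.06% of all genes. In globin and PF4/PPBP cells 22 of 22 megakaryocyte genes were higher, with a median of 4.34, and of 18 erythroid genes 12 were higher and 1 lower, with a median of 1.46, beside 8.98% and 12.8% of all genes. Both classes are chosen by globin, and the latter also by *PF4* and *PPBP*. The direction of these lists is therefore not independent of how the cells were chosen. *F13A1*, *CLEC1B* and *GP6*, at 0.29, 0.12 and 0.29 CPM in CD34/GATA2 cells, passed the minimum only through the globin classes. So did *ALAS2* (0.29 CPM) in globin-only cells, and such genes could only be called higher. Of 22 partners 2 were higher and 4 lower in globin-only cells, beside 4.06% and 2.62% of all genes. In globin and PF4/PPBP cells 3 were higher and 7 lower, beside 8.98% and 12.8%. Among these 7 was *GATA2*, at 43.1 CPM against 270 CPM in CD34/GATA2 cells. That class is chosen by *GATA2*, so this call is not independent of how the cells were chosen.

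**Figure D5:**
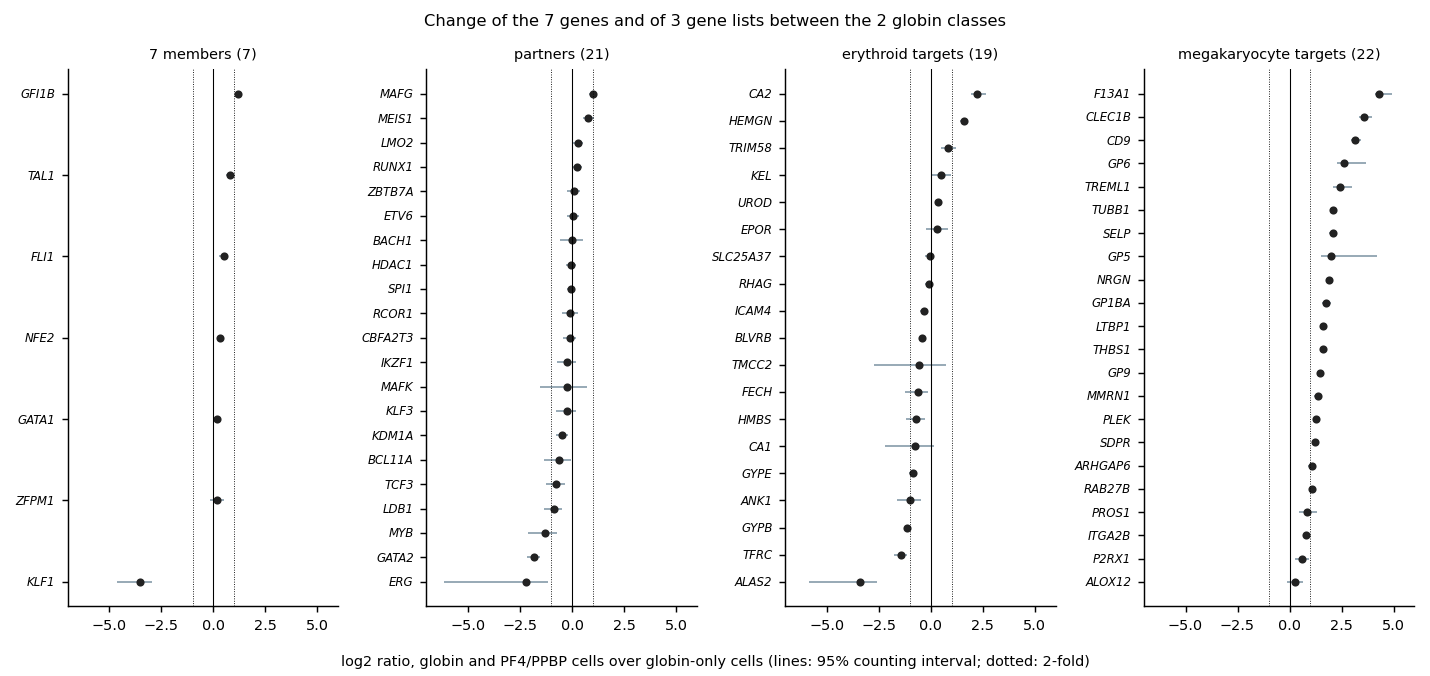
log2 ratio of globin and PF4/PPBP cells over globin-only cells for the 7 members and measured genes of 3 lists, with 95% counting intervals and dotted lines at 2-fold. *KLF1* is at -3.54, and 18 megakaryocyte genes lie past the upper dotted line.

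The genes most like each member were found by Pearson's correlation of log2(CPM + 1) over 26 sums of cells by class and hashtag, among 12247 genes with at least 200 UMIs. The points share 1 library and many share a class, so the values are descriptions. *GATA1* and *GFI1B* were most like *CCDC28B* (r = 0.97 and 0.98), with *LAT*, an adaptor of platelets and T cells, among the top 3 of both, and r was 0.96 between them. *GCSAML* was the second for *GATA1* and *SDPR* the third for *GFI1B*. *KLF1* was most like *CTNNBL1* (0.90), *CNRIP1* (0.88) and *TFR2* (0.88), transferrin receptor 2. *TAL1* was most like *C10orf107*, *LCN2* and *SELP* (0.96 each), *FLI1* like *FOXN2* (0.93), *NENF* (0.92) and *C11orf21* (0.92), and *NFE2* like *LYL1* (0.95), a relative of *TAL1*, *LSMD1* (0.93) and *NDUFB9* (0.92). *ZFPM1* was most like *SRC* (0.91), *ADCY6* (0.90) and *LIMS1* (0.88), and its correlation with *NFE2* was 0.08. *KLF1* and *FLI1* correlated at 0.51 over these sums. Of the globin or PF4/PPBP cells, 4.58% held both at 5000 UMIs and 29.8% as counted.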

How the data were processed

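Cells were from 1 pooled 10x Chromium 3′ library of line iPS11 at day 5. The deposited counts are UMIs per gene and cell, which the authors made before deposit with Cell Ranger 6.0.1 on hg19, per the submitters' processing notes, and a hashtag call per barcode was deposited beside them. The 7 genes, the lists and the thresholds were chosen with earlier results of these data known. Barcodes called Doublet or Negative were left out, and no doublet caller was applied in the main values. Scrublet, an alternative, marked 99 of 8488 called cells (1.17%), 63 of them within the limits (0.834%).

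Levels are summed UMIs per 1000000 (CPM) over a class, with a pseudocount of 1 CPM in log2 ratios and a minimum of 3 CPM in either class. Classes were set by summed UMIs: at least 10 for globins, PF4/PPBP, C1Q genes, eosinophil granule genes (*EPX*, *PRG2*, *CLC*), tryptase (*TPSAB1* only) and collagens, at least 100 for the MPO list, and at least 2 each of *CD34* and *GATA2*. Globin and PF4/PPBP classes came first, then CD34/GATA2, then a reference class where exactly 1 applied. Thinning drew 5000 UMIs per cell with a fixed seed. Of the megakaryocyte list, *ITGB3* was left out because its symbol occurs more than once.

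Named genes are the 7 members, the 3 genes most like each, and the list genes with the largest ratios. That rule was written for globin-only against PF4/PPBP-only cells, and its use for globin and PF4/PPBP against globin-only cells was added after seeing the data. *EPOR*, *MAFG*, *LMO2*, *RUNX1*, *LDB1* and *TCF3* and the genes set beside the *KLF1* share were chosen after their values were seen. Alternatives changed the marker minimum, the CD34/GATA2 minimum, the limits on cells, doublets, thinning, pseudocount, totals and the pair minimum, and left out each hashtag or cells with markers of another lineage. Some list genes entered the counts but are not reported here by name. Promoters are from RefSeq (GRCh38.p14) and gene positions are GRCh37. Figures were drawn with matplotlib 3.10.9, and tables made in Python 3.11.15 with pandas 2.3.3, numpy 2.4.6 and scipy 1.17.1 (Scrublet through scanpy 1.11.5), and the scripts were tested on simulated data.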

Additional observations from a re-analysis of the deposited data

Results flagged for a closer look

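Barcodes outside the comparisons also held the markers. Of 809 barcodes that the hashtag call left Negative and that were within the limits, 36 had at least 10 globin or PF4/PPBP UMIs (4.45%, 3.14 to 6.11), with *KLF1* at 195, *GATA1* at 214 and *FLI1* at 32.8 CPM in them. Of 834 barcodes called Doublet and within the limits, 81 did (9.71%, 7.79 to 11.9), with *KLF1* at 53.5 and *FLI1* at 70.5 CPM. At 5000 UMIs *KLF1* and *FLI1* were found together in 0 of 35 Negative and 2 of 81 Doublet barcodes (2.47%). Among the 7550 kept cells 7.28% passed the same minimum, with *KLF1* at 70.2, *GATA1* at 280 and *FLI1* at 93.0 CPM in them. The values of Negative and Doublet barcodes are given because they lie outside the cells with a single hashtag call.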

How the results depend on the processing

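Of 503 alternative values of 31 results, 428 were labelled the same as the main value, 72 moved and 3 turned direction. Ratios and shares were judged by the counting interval of the main value. Counts of members, which have no such interval, were judged by a set fold. The *KLF1* ratio of globin and PF4/PPBP cells to globin-only cells stayed below -2 in each alternative run. With a marker minimum of 3 UMIs it was -2.51, *FLI1* was 1.15 and 4 members were past 2-fold; against the 1 PF4/PPBP-only cell left, *KLF1* was 5.68, *FLI1* -2.06 and 6 members were past 2-fold. With mitochondrial UMIs limited to 10% (20, 7 and 0 cells of the 3 marker classes) the ratios were -5.71 for *KLF1*, fitted to a class without a UMI and so no bound, and 1.13 for *FLI1*, the share of cells with both was 0%, and no value against PF4/PPBP-only cells could be had. Without limits on UMIs or genes *FLI1* was 0.25 and 1 member was past 2-fold. The share of cells with *KLF1* and *FLI1* was 29.8% unthinned and 11.4% at 9000 UMIs. In alternatives chosen after seeing the data, all PF4/PPBP-positive cells as the second class gave 3.01 for *KLF1*, -0.42 for *FLI1* and 2 members past 2-fold. A globin sum without *HBD* gave 2.00 for *KLF1* and -0.092 for *FLI1*, for 265 globin-only against 19 PF4/PPBP-only cells. Leaving out each hashtag gave 0.03 to 1.62 for *KLF1* and 0.72 to 6.36 for *FLI1* against PF4/PPBP-only cells (1 to 2 members past 2-fold; the highest *FLI1* value, without 0252, is set against 3 cells with no *FLI1* UMI and is no bound), -4.12 to -3.31 and 0.35 to 0.69 for globin and PF4/PPBP against globin-only cells, 3.83 to 5.13% of cells with both genes, and 1.65 to 2.47 for *KLF1* in globin-only against CD34/GATA2 cells. Leaving out cells with markers of another lineage gave -3.44 for *KLF1*. The share of all genes past 2-fold was not computed in these alternatives, so their counts of members cannot be set beside it. The cause of these changes was not tested. Both classes occur under each hashtag, and the ratios within hashtags are given as values with no test, since each hashtag is 1 pool of another coating.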
